A study of Mus musculus with 6 samples.

Results

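Smooth muscle cells and pericytes, the contractile cells that surround blood vessels, were followed in the cardiac side population (SP) through 33 of their genes, out of 50600 genes with a deposited count. The list was drawn up by gene name, with earlier results of these data known. It holds 27 genes of the contractile cell and, set apart, 6 genes of the pericyte, *Rgs5*, *Kcnj8*, *Cspg4*, *Vtn*, *Higd1b* and *Ndufa4l2*. The SP is defined by efflux of the DNA dye Hoechst from cells of the heart, and its polyA RNA was sequenced fresh from the sort. The wild-type (wt) group was C57BL/6NRj and the other group carried the Flt3Ltml/mx allele on a C57BL/6N background, a knockout of the Flt3 ligand in the whole animal (flt3L-/-). Each group had 3 libraries, each pooled from 4 mice of 8 to 12 wk without further treatment. All cell suspensions had been depleted of cardiomyocytes and erythrocytes, and 1 wt and 1 flt3L-/- library of each sorting date form pairs 1, 2 and 3.

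Total counts lay between 24370913 and 31145519 per library. The detection limit was set at 3 counts, or 0.109 to 0.127 CPM, for counting error only. CPM are counts relative to a library's counts in the genes that entered the fit. CPM was scaled with TMM factors, which correct library size for differences in composition. *Flt3l*, the targeted gene, had 8.67, 10.8 and 12.1 CPM in wt and 13.6, 12.4 and 14.4 CPM in those labelled flt3L-/-, so its reads were not lower there and did not check the label. The study's methods describe a sort of Sca1+/CD31- cells as well as of the complete SP, and the summed CPM of 8 endothelial markers, among them *Pecam1*, which encodes CD31, was 6613 to 8741 per library. The 8 fibroblast markers summed to 9897 to 42148 CPM. *Acta2*, *Myh11* and *Rgs5*, the defining markers of the smooth muscle cell and the pericyte, were above the detection limit in all 6 libraries, with a summed CPM of 150 to 337. In such bulk libraries, fewer cells of a type and less RNA per cell cannot be told apart.

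A smooth muscle cell shortens when a rise in calcium activates myosin light chain kinase, which lets smooth muscle myosin pull on actin filaments. Its contractile genes are switched on together by serum response factor, which binds a short DNA sequence named the CArG box, and by the coactivator myocardin. Pericytes sit on capillaries in the basement membrane, share part of this program, and in the heart are marked by an ATP-sensitive potassium channel and by *Rgs5*, a regulator of G protein signaling.

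Levels between genes were compared per kilobase of exon (TMM-scaled CPM per kb). The range over the 33 genes was wide, and the order did not put the classical contractile genes first. *Smtn*, which encodes the actin-binding smoothelin, was highest with 80.3 CPM per kb on average over the 6 libraries, followed by the adhesion molecule *Mcam* (CD146) with 49.2 and the tropomyosin gene *Tpm1* with 45.1. Both *Mcam* and *Tpm1* are known to be expressed outside smooth muscle as well. *Rgs5* came next with 29.5 CPM per kb, and then *Sncg*, which encodes gamma-synuclein, with 26.0. The actin-binding caldesmon gene *Cald1*, the regulatory light chain gene *Myl9*, smooth muscle actin *Acta2* and transgelin *Tagln* formed a close group at 17.8, 17.6, 14.7 and 14.5 CPM per kb, whose libraries overlapped. Of the 33 genes, 10 averaged more than 10 CPM per kb, 9 of them contractile and 1 of them a pericyte gene. Another 10 genes averaged below 1 CPM per kb.

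**Figure D1:**
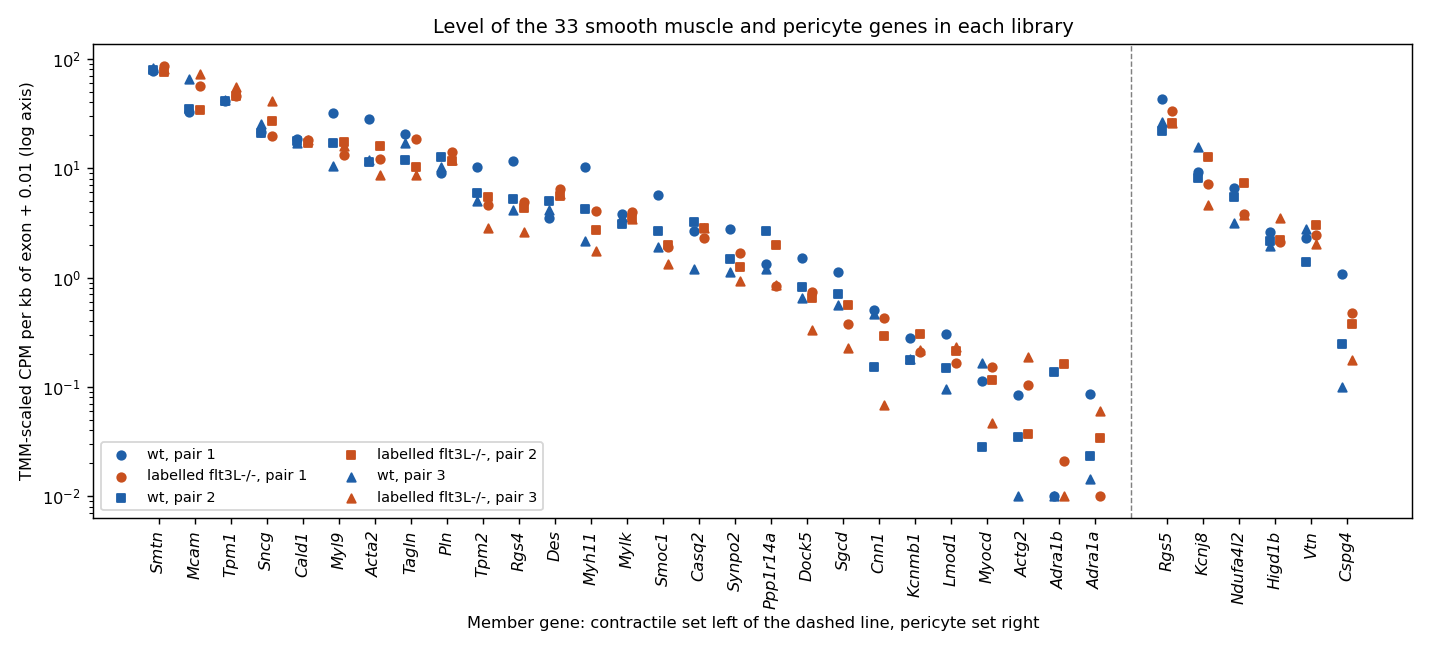
Level of each of the 33 genes in each library as TMM-scaled CPM per kb of exon plus 0.01, on a log axis, with the contractile genes left of the dashed line and the pericyte genes right of it. Blue points are wt, orange points are labelled flt3L-/-, and circles, squares and triangles are pairs 1, 2 and 3. The plot shows *Smtn* at the top with a mean of 80.3, a steady decline to *Adra1a* with 0.0279, and *Rgs5* as the only pericyte gene with a mean above 10.

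At the low end were genes that define the mature contractile cell. *Cnn1*, calponin, a marker of differentiated smooth muscle, averaged 0.306 CPM per kb. *Lmod1*, the leiomodin that nucleates actin filaments, averaged 0.183, and *Myocd*, the coactivator myocardin, averaged 0.0937. *Actg2*, the gamma actin of visceral smooth muscle, had 3, 1 and 0 counts in the wt libraries of pairs 1, 2 and 3 and 4, 1 and 7 counts in those labelled flt3L-/-. The adrenergic receptor genes *Adra1a* and *Adra1b*, through which noradrenaline contracts vessels, had 0 to 17 and 0 to 12 counts. *Myocd* had 3 to 27 counts and *Lmod1* had 9 to 30. These 5 genes did not pass the filter of more than 1 CPM in at least 2 libraries and were not tested, which left 28 genes.

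In absolute terms, 5 genes, *Smtn*, *Tpm1*, *Cald1*, *Mcam* and *Rgs5*, held 68.1% to 82.6% of the summed CPM of the list. Relative to the TMM-scaled counts of a library in the genes that entered the fit, the contractile genes came to 0.124% to 0.142%. The pericyte genes came to 0.0134% to 0.0247%. The members with the highest CPM, *Smtn*, *Tpm1* and *Cald1*, varied little between libraries. *Smtn* had 337, 344 and 358 CPM in wt of pairs 1, 2 and 3 and 381, 335 and 355 CPM in those labelled flt3L-/-, and *Cald1* had 225, 212 and 204 CPM against 218, 205 and 219 CPM. The groups of both genes overlapped. *Tpm1* had 269, 266 and 273 CPM in wt and 296, 294 and 355 CPM in those labelled flt3L-/-, so here the groups were apart. Reads were not assigned to a strand, and 67.9% of the exon bases of *Tagln*, 64.7% of those of *Pln* and 16.3% of those of *Smtn* overlap a gene on the other strand. Of all windows of one read length in their transcripts, 52.1%, 51.9% and 6.10% also occur in a transcript of another gene, so the values of *Tagln* and *Pln* are uncertain. *Acta2* and *Actg2* shared no such window.

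The filament proteins of smooth muscle have close relatives that every cell uses for its cytoskeleton, and most of these were more abundant. *Actb* and *Actg1*, the cytoplasmic actins, averaged 470 and 206 CPM per kb against 14.7 for *Acta2*, and in single libraries *Actb* was 11.7 to 73.0 times as high as *Acta2*. *Tpm4* averaged 679 CPM per kb and was 58.9 to 287 times as high as *Tpm2*. *Tagln2* was 10.5 to 37.8 times as high as *Tagln*, and *Myl12a* 6.32 to 21.0 times as high as *Myl9*. Of the genes compared in single libraries, the gap was widest for calponin, where *Cnn3* was 412 to 4202 times as high as *Cnn1*. Among these it was narrowest for the myosin heavy chains, with 24.2 CPM per kb for *Myh9* and 11.3 for *Myh10* against 4.19 for *Myh11*. *Myh9* was 2.45 to 13.1 and *Myh10* 2.24 to 4.35 times as high as *Myh11*. *Tpm1* and *Tpm3*, with means of 45.1 and 98.5 CPM per kb, were not compared in this way. The third nonmuscle myosin heavy chain, *Myh14*, lay below *Myh11* in every library, with a mean of 0.785 CPM per kb.

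**Figure D2:**
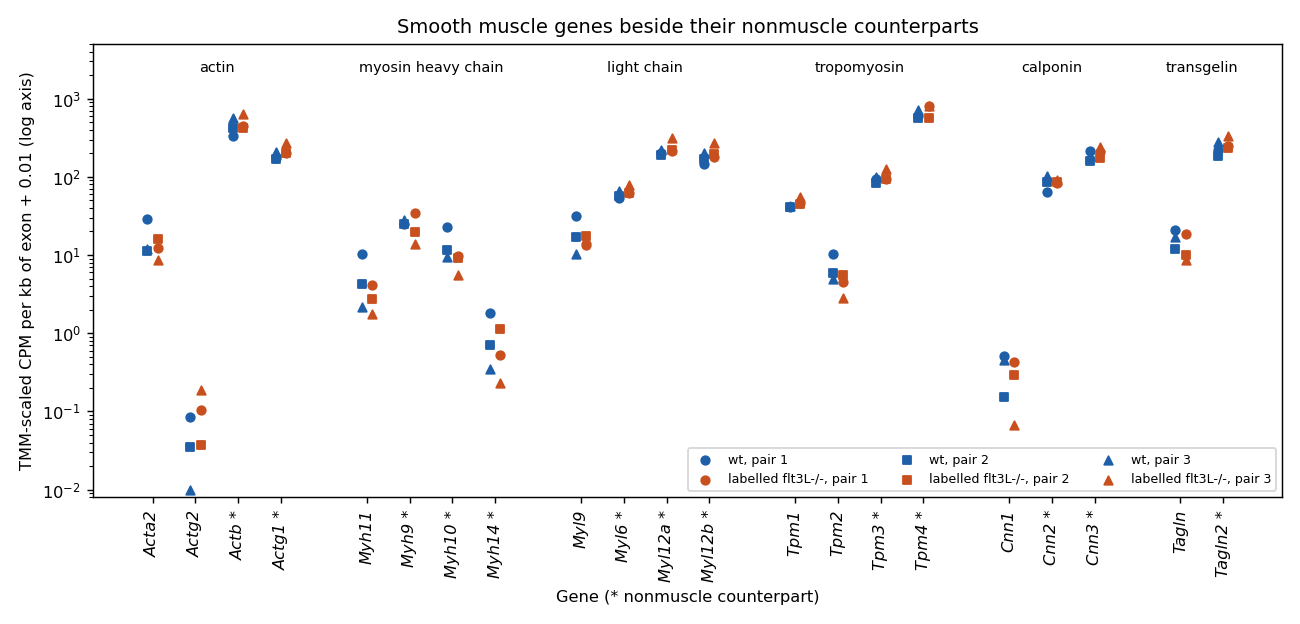
TMM-scaled CPM per kb of exon plus 0.01 on a log axis for smooth muscle genes and, marked with an asterisk, their nonmuscle counterparts, with blue for wt, orange for libraries labelled flt3L-/- and 1 symbol per pair. In each family the counterparts lie above the smooth muscle genes in all 6 libraries except for *Myh14*, which lies below *Myh11*. *Myh9* has a mean of 24.2 against 4.19 for *Myh11*, and *Cnn3* has 197 against 0.306 for *Cnn1*.

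Promoters were read to see whether the letters of the CArG box lie near the starts of these genes. RefSeq promoters of GRCm38.p6, from 250 bases before to 50 bases after a start, were found for 24 of the 33 genes, with 26 promoters in all, and *Tagln*, *Myh11*, *Actg2*, *Myocd*, *Adra1a*, *Smoc1*, *Dock5*, *Higd1b* and *Ndufa4l2* had no entry. A CArG box, which reads alike on both strands, was present in 1 of the 26 promoters, or 3.85%, against 1.63% of all 32851 promoters. A window 1 base away from the box was present in 8 of the 26, or 30.8%, against 19.9% of all promoters. The 1 match was in *Myl9*, and *Acta2* held 2 windows that are 1 base off. The bases before the starts of these genes and of *Rgs5* are shown with those letters in capitals. *Myl9* and *Acta2* were chosen after the matches were seen, and *Rgs5*, the most abundant pericyte gene, shows neither form. The regions are chr2:156775214-156775463 on the plus strand for *Myl9*, with the box starting 161 bases before the start, chr19:34255374-34255623 on the minus strand for *Acta2*, with windows 84 and 34 bases before it, and chr1:169655251-169655500 on the plus strand for *Rgs5*, each 5′ to 3′. A second window 1 base off the box in *Myl9*, 99 bases before the start, is left in lower case.
Myl9: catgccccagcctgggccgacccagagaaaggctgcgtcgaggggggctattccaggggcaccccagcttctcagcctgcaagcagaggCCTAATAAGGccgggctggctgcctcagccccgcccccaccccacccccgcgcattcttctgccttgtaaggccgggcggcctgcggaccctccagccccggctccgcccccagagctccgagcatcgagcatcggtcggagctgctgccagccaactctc
Acta2: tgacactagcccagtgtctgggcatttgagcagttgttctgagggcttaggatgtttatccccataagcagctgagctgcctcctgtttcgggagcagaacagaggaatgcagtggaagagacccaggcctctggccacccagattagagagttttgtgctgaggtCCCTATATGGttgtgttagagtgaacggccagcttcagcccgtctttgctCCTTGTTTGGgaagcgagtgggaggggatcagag
Rgs5: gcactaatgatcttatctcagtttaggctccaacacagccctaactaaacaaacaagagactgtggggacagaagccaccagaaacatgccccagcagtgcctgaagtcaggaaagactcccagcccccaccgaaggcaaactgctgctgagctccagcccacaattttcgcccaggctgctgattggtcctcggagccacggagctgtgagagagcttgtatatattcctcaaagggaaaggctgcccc
The promoters of *Smtn*, *Mcam* and *Sncg* held neither form, and that of *Tpm1* held 2 windows that are 1 base off. A match describes these letters and is not evidence of binding.

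The comparison of the libraries labelled flt3L-/- with wt asked whether the smooth muscle and pericyte genes of the SP differ without Flt3 ligand. Several contractile genes were lower in each pair, among them *Myh11*, *Tpm2*, *Sgcd*, *Rgs4*, *Smoc1* and *Dock5*, with fitted log2 fold changes of −0.70 to −1.10 (SE, the standard error, 0.24 to 0.36), while *Des* and *Tpm1* were higher in each pair and the pericyte genes had no common direction. None of these differences passed the adjustment over all genes. Of the 28 tested genes, 0 had an adjusted p under 0.05 in edgeR's quasi-likelihood test with the sorting date as covariate, and 0% of all 13475 genes did. With DESeq2 the count was again 0 of 28, against 0.156% of all genes. At an unadjusted p under 0.05 there were 6 genes in edgeR, all contractile and all lower, against 2.49% of all genes that were lower at this level, 1.11% that were higher and 3.59% in either direction, and DESeq2 gave the same 6 genes, against 4.76% of all genes. Of the 28, 9 were lower in all 3 pairs, against 11.5% of all genes, and 2 were higher in all 3 pairs, against 14.2%. The groups did not overlap for 2 genes, against 6.45% of all genes. The median log2 fold change was −0.29 over the 22 tested contractile genes, of which 12 were lower in the fit, against 50% of all genes. It was 0.02 over the 6 pericyte genes, which became −0.01 with library size only, beside −0.00027 over all genes tested.

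**Figure D3:**
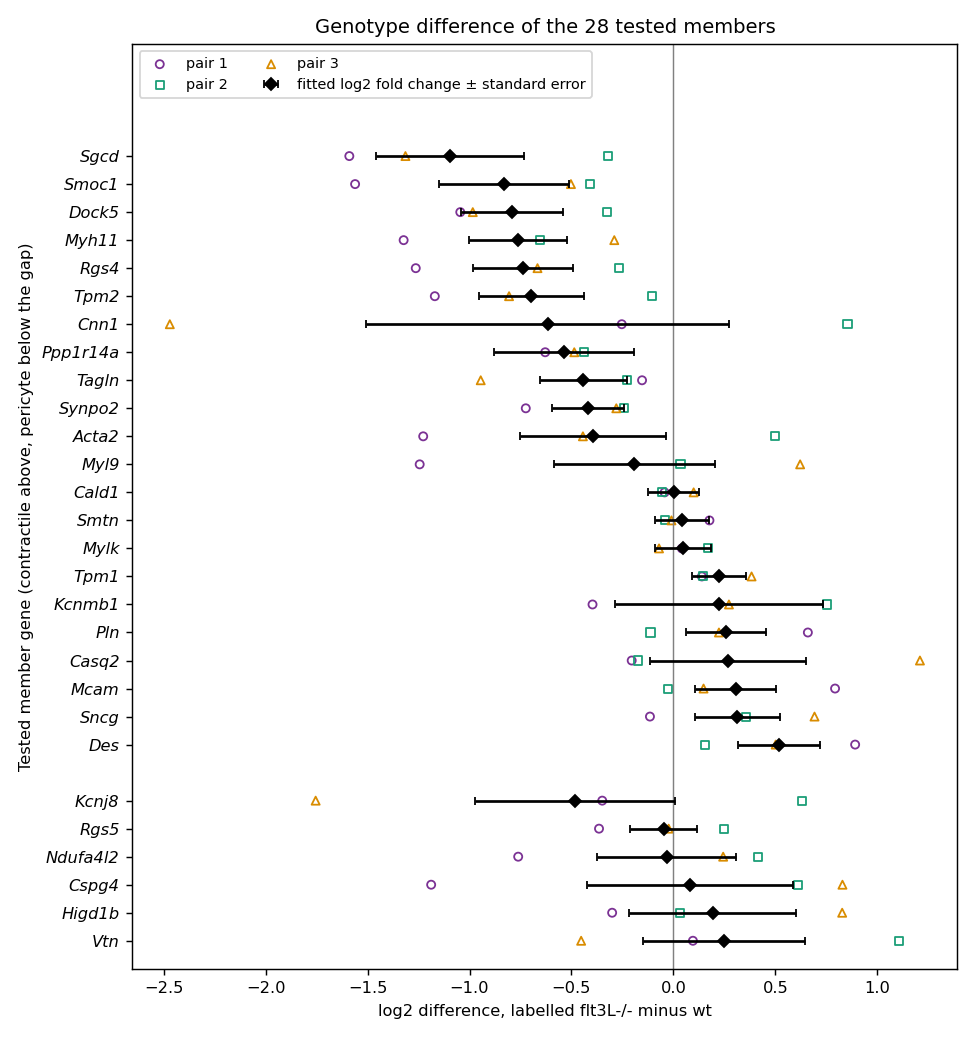
Fitted log2 fold change, labelled flt3L-/- minus wt, of the 28 tested genes (black diamonds, bars are standard errors) with the log2 CPM difference of each pair (open symbols), contractile genes above the gap and pericyte genes below it. From *Sgcd* at −1.10 to *Tpm2* at −0.70 every pair lies below 0, *Tpm1* and *Des* have every pair above 0, and each pericyte gene has pairs on both sides of 0.

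Among the filament genes, *Myh11*, the smooth muscle myosin heavy chain, was lower in each pair. The gene spans 14194535 to 14291372 on chromosome 16 (GRCm38). Counts came to 77.5, 32.4 and 16.3 CPM in wt of pairs 1, 2 and 3 and 30.9, 20.5 and 13.3 CPM in those labelled flt3L-/-. The groups overlapped, since the level also differed between pairs. The log2 fold change of *Myh11* was −0.76 (SE 0.24, unadjusted p = 0.0263 and adjusted p = 0.973 in edgeR's quasi-likelihood test). *Tpm2*, which encodes beta-tropomyosin, had 30.0, 17.2 and 14.5 CPM in wt and 13.3, 15.96 and 8.23 CPM in those labelled flt3L-/-. Its log2 fold change was −0.70 (SE 0.26, unadjusted p = 0.0441 in edgeR's test), with almost no difference in pair 2. *Tagln* was also lower in each pair, with 41.0, 23.6 and 33.5 CPM in wt against 36.8, 20.2 and 17.4 CPM and a log2 fold change of −0.44 (SE 0.21).

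*Acta2*, on chromosome 19 from 34241090 to 34255590, did not keep one direction. It had 62.5, 24.8 and 25.9 CPM in wt and 26.7, 35.1 and 19.0 CPM in those labelled flt3L-/-, so it was lower in pairs 1 and 3 and higher in pair 2. The log2 fold change of *Acta2* was −0.40 (SE 0.36). It was 0.03 without pair 1 and −0.86 without pair 2, so the value rests on those pairs. *Cnn1* had 1.36, 0.388 and 1.23 CPM in wt and 1.13, 0.764 and 0.158 CPM in the other group, and its log2 fold change of −0.62 had an SE of 0.89. *Myl9* had 36.8 CPM in wt of pair 1 and 12.1 to 20.1 CPM in all other libraries, with a log2 fold change of −0.19 (SE 0.39). The log2 fold changes of *Tpm1*, *Smtn* and *Cald1*, the most abundant members, were 0.22, 0.04 and 0.00059, with SEs of 0.13, 0.13 and 0.12, and that of *Cald1* became −0.0387 with library size only.

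The genes that anchor filaments split. *Sgcd* encodes delta-sarcoglycan of the membrane complex that ties the cytoskeleton to the matrix. It had 9.25, 5.74 and 4.54 CPM in wt and 3.02, 4.58 and 1.78 CPM in those labelled flt3L-/-, and its log2 fold change of −1.10 (SE 0.36, unadjusted p = 0.0309 in edgeR's test) was the furthest from 0 in the list. *Synpo2*, whose product binds actin and the Z-disc, had 36.4, 19.4 and 14.7 CPM in wt and 22.0, 16.3 and 12.1 CPM, lower in each pair by 0.72, 0.24 and 0.28 on the log2 scale. *Des*, the intermediate filament desmin of all muscle types, went the other way. It had 13.0, 18.9 and 15.4 CPM in wt and 24.1, 21.0 and 21.8 CPM in those labelled flt3L-/-, groups that did not overlap, with a log2 fold change of 0.52 (SE 0.20, unadjusted p = 0.0515 in edgeR's test). *Des* is also a gene of cardiomyocytes. Of 10 tested cardiomyocyte markers, 6 were higher in all 3 pairs, against 14.2% of all genes, and the median log2 fold change was 0.42. In the fit 9 were higher and 1 was lower, where 50% of all genes were lower. The summed CPM of the cardiomyocyte markers was 128, 196 and 183 in wt and 223, 237 and 210 in those labelled flt3L-/-. *Myl7* and *Ryr2* did not pass the filter of more than 1 CPM in at least 2 libraries and were not tested. The part of the cardiomyocyte markers in the values of *Des* was not tested.

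Of the genes that control contraction, *Rgs4*, which shortens signaling by G protein-coupled receptors, was the only one with an unadjusted p under 0.05. It had 36.3, 16.1 and 12.9 CPM in wt and 15.1, 13.3 and 8.11 CPM in those labelled flt3L-/-, with a log2 fold change of −0.74 (SE 0.24, unadjusted p = 0.0308 in edgeR's test). *Ppp1r14a* encodes an inhibitor of myosin phosphatase. It was lower in each pair, with 1.79, 3.65 and 1.64 CPM in wt and 1.13, 2.67 and 1.15 CPM, and a log2 fold change of −0.54 (SE 0.34). *Mylk*, the light chain kinase, stayed between 34.9 and 44.3 CPM in all libraries with a log2 fold change of 0.05 (SE 0.14). *Pln* and *Casq2*, which encode the calcium pump inhibitor phospholamban and a calcium store protein and are also cardiomyocyte genes, had log2 fold changes of 0.26 and 0.27 with SEs of 0.20 and 0.38. The potassium channel subunit gene *Kcnmb1* had 0.698 to 1.23 CPM and a log2 fold change of 0.22 (SE 0.51).

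Of the remaining contractile genes, *Smoc1* and *Dock5* were lower in each pair. *Smoc1*, a secreted calcium-binding matrix protein, had 19.7, 9.27 and 6.59 CPM in wt and 6.63, 6.96 and 4.63 CPM in those labelled flt3L-/-, with a log2 fold change of −0.83 (SE 0.32, unadjusted p = 0.0497 in edgeR's test). *Dock5*, an activator of the GTPase Rac, had 18.3, 9.86 and 7.75 CPM in wt and 8.81, 7.85 and 3.88 CPM, with a log2 fold change of −0.79 (SE 0.25, unadjusted p = 0.0265 in edgeR's test). In both genes the wt library of pair 1 stood far above the others. *Mcam* and *Sncg* had log2 fold changes of 0.30 (SE 0.20) and 0.31 (SE 0.21), and neither kept its direction in all 3 pairs.

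The pericyte genes had no common direction, with 3 of 6 lower, none of the 6 lower or higher in all 3 pairs and none with an unadjusted p under 0.05. *Rgs5*, on chromosome 1 from 169655501 to 169695813, had 197, 99.95 and 119 CPM in wt and 153, 119 and 117 CPM in those labelled flt3L-/-. Its log2 fold change was −0.05 (SE 0.16), with the smallest SE among the pericyte genes. *Kcnj8*, the pore of the ATP-sensitive potassium channel of pericytes, had 23.4, 20.7 and 39.4 CPM in wt and 18.4, 32.0 and 11.6 CPM, and its log2 fold change of −0.48 (SE 0.49) became 0.14 without pair 3. *Cspg4*, the proteoglycan NG2, varied widely between pairs, with 12.7, 2.83 and 1.08 CPM in wt and 5.54, 4.37 and 1.98 CPM. It was lower in pair 1 and higher in pairs 2 and 3. *Vtn*, the matrix protein vitronectin, had 4.67, 2.79 and 5.66 CPM in wt and 4.99, 6.11 and 4.12 CPM. *Higd1b*, a mitochondrial protein gene of pericytes, had 2.22, 1.82 and 1.64 CPM in wt and 1.78, 1.87 and 2.97 CPM. *Ndufa4l2*, a hypoxia-induced mitochondrial gene, had 7.15, 5.94 and 3.46 CPM in wt and 4.19, 7.94 and 4.12 CPM. In the last 3 genes the groups overlapped throughout. The median log2 difference of the 6 genes was −0.36, 0.51 and 0.11 in pairs 1, 2 and 3.

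**Figure D4:**
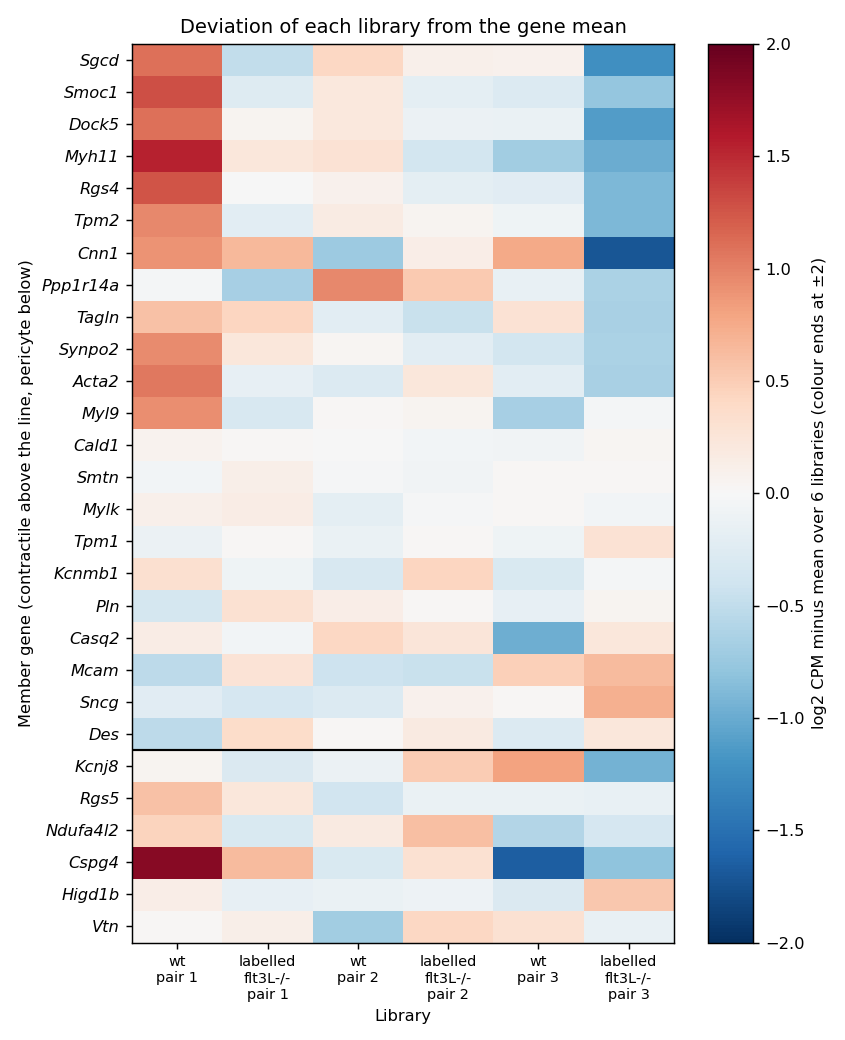
Log2 CPM of each library minus the gene's mean over 6 libraries for the 28 tested genes, red above and blue below the mean, with contractile genes above the black line and pericyte genes below it. The first column, wt of pair 1, is the highest library for 14 of the 28 genes, and the last column, labelled flt3L-/- of pair 3, is the lowest for 11.

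A pair of libraries stood at the ends of the range for many of the genes. The wt library of pair 1 was the highest of all 6 for 14 of the 28 genes, against 19.3% of all genes, and the library labelled flt3L-/- of pair 3 was the lowest for 11, against 25.2%. For each of the 6 genes with an unadjusted p under 0.05, the former was the highest and the latter the lowest, and the groups overlapped. Without pair 1, 0 of the 28 genes had an unadjusted p under 0.05 in edgeR's test, against 2.58% of all genes, and the median log2 fold change of the contractile genes was −0.00097. The 6 genes stayed lower in that fit, with log2 fold changes of −0.83 to −0.46 and 1 residual degree of freedom fewer. Without pair 2 there were 8, *Acta2*, *Tpm2*, *Des*, *Sgcd*, *Rgs4*, *Smoc1*, *Dock5* and *Kcnj8*, against 7.23% of all genes, and without pair 3 *Myh11* was the only one, against 1.94%. Within pair 2 the 6 genes of the full fit were lower by 0.10 to 0.66 on the log2 scale. The fibroblast markers moved with them in pairs 1 and 3. All 8 fibroblast markers were lower in the fit, against 50% of all genes, with a median log2 fold change of −0.65. Their median difference was −0.96, 0.16 and −1.14 in pairs 1, 2 and 3. Their summed CPM was 42148, 27056 and 21166 in wt and 20632, 31784 and 9897 in those labelled flt3L-/-, with 7 of the 8 highest in wt of pair 1 and 8 lowest in the library labelled flt3L-/- of pair 3. None of the 8 was near the detection limit. In pair 2, 3 of the 8 fibroblast markers were lower. Their part in the lower contractile genes was not tested.

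The sorting dates, numbered as the pairs, were tested in the same fit, since many members differed between pairs. Levels of *Myh11*, *Synpo2*, *Rgs4*, *Dock5* and *Cspg4* were highest on date 1 and lowest on date 3 in both groups. No member had an adjusted p under 0.05 for the date in edgeR, where 0% of all genes did and the smallest adjusted p of a member was 0.598, while 8 of the 28 had an unadjusted p under 0.05, against 8.28% of all genes. For 7 of the 8 the highest mean was on date 1, against 5.22% of all genes, and for *Mcam* it was on date 3, against 1.62%. *Myh11* averaged 54.2, 26.5 and 14.8 CPM on dates 1, 2 and 3 (unadjusted p = 0.00614 in edgeR's joint test of the 2 date coefficients). With DESeq2, *Myh11* was the one member called for the date (adjusted p = 0.00119, DESeq2 likelihood ratio test), against 3.18% of all genes.

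*Synpo2* averaged 29.2, 17.9 and 13.4 CPM on the 3 dates, *Rgs4* 25.7, 14.7 and 10.5 CPM, and *Dock5* 13.5, 8.85 and 5.81 CPM. *Cspg4* averaged 9.12, 3.60 and 1.53 CPM. *Rgs5* and *Tagln* were highest on date 1 with 175 and 38.9 CPM and did not differ much between the later dates, at 109 and 118 CPM for *Rgs5* and 21.9 and 25.4 CPM for *Tagln*. *Mcam*, which endothelial cells also express, averaged 148, 116 and 229.8 CPM, from 109, 117 and 218 CPM in wt and 188, 115 and 242 CPM in those labelled flt3L-/-. The date test without pair 1, chosen after the data were seen, left *Myh11*, *Mcam* and *Cspg4* with an unadjusted p under 0.05, against 5.63% of all genes. The count was 11 without pair 2, against 13.9%, and 4 without pair 3, against 5.2%. What else differed between the sorting dates is not given in the labels.

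**Figure D5:**
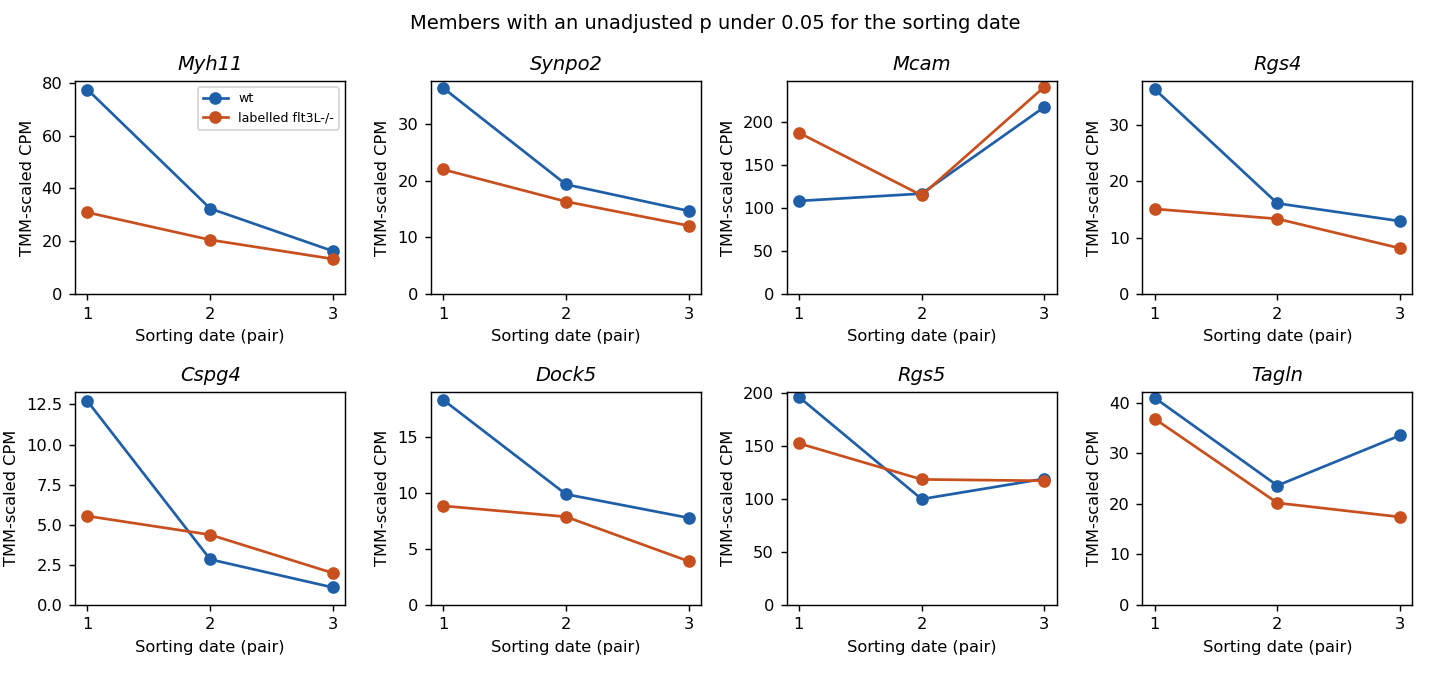
TMM-scaled CPM by sorting date of the 8 genes with an unadjusted p under 0.05 for the date, 1 panel per gene, with blue for wt and orange for libraries labelled flt3L-/-, 1 library per point and each axis starting at 0. *Myh11* has 77.5 CPM on date 1 and 16.3 CPM on date 3 in wt, and 30.9 and 13.3 CPM in the other group, and *Mcam* is highest on the third date in both groups.

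Other genes of the same systems were read from lists by role. Among 11 regulators of smooth muscle transcription 0 had an unadjusted p under 0.05 between genotypes in edgeR's test and the median log2 fold change was −0.17. The most abundant was *Klf4*, a repressor of the contractile program, with 307, 241 and 141 CPM in wt and 346, 223 and 145 CPM in those labelled flt3L-/-, a log2 fold change of 0.03 (SE 0.13). For the sorting date, 3 of the 11 had an unadjusted p under 0.05, against 8.28% of all genes, each with the highest mean on date 1, among them *Klf4* and *Srf*. *Srf*, serum response factor, is described because of these values and had 34.0, 33.8 and 6.82 CPM in wt and 34.5, 12.2 and 9.18 CPM in those labelled flt3L-/- (unadjusted p = 0.0264 for the date and adjusted p = 0.598 in edgeR's test). Of 13 genes that carry kinase and calcium signals to myosin 0 had an unadjusted p under 0.05 between genotypes, with a median log2 fold change of −0.02, and 3 had one for the date, *Itpr1*, *Prkg1* and *Rock2*, each highest on date 1. Of 13 nonmuscle counterparts of the filament genes, 7 were higher in all 3 pairs, against 14.2% of all genes, and the median log2 fold change was 0.19. *Tpm4*, the most abundant, had a log2 fold change of 0.19 (SE 0.16). The only one with an unadjusted p under 0.05 between genotypes, against 3.59% of all genes, was lower. This was *Myh10*, nonmuscle myosin IIB, with 239, 122 and 97.4 CPM in wt and 100.4, 95.9 and 57.2 CPM, and a log2 fold change of −0.79 (SE 0.21, unadjusted p = 0.0138 in edgeR's test).

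Of 18 other genes of mural cells, the cells around vessels, 15 were lower, against 50% of all genes, 4 were lower in all 3 pairs, against 11.5%, and the median log2 fold change was −0.37, beside 0.02 for the 6 pericyte genes. Their median difference was −0.49, 0.0011 and −0.53 in pairs 1, 2 and 3, beside −0.96, 0.16 and −1.14 for the fibroblast markers. The wt library of pair 1 was the highest for 10 of the 18, against 19.3% of all genes, and the library labelled flt3L-/- of pair 3 was the lowest for 11, against 25.2%. The part of these libraries and of the fibroblast markers in the lower values was not tested. *Abcc9*, the subunit that assembles with the *Kcnj8* channel, had 154, 67.9 and 84.6 CPM in wt and 81.7, 65.6 and 26.5 CPM in those labelled flt3L-/-. Its log2 fold change was −0.88 (SE 0.33, unadjusted p = 0.0481 in edgeR's test), while that of *Kcnj8* was −0.48 with a higher value in pair 2. *Tbx18*, a transcription factor of mural and epicardial cells, had 9.87, 8.30 and 3.28 CPM in wt and 6.34, 4.67 and 1.90 CPM, with a log2 fold change of −0.75 (SE 0.24, unadjusted p = 0.0266 in edgeR's test). *Ebf1*, the most abundant of this list, had 212, 217 and 179 CPM in wt and 168, 196 and 210 CPM, and its groups overlapped. No gene of these lists passed the adjustment over all genes.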

How the data were processed

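Single reads of 81 bases from unstranded libraries were mapped by the authors to mm10 with STAR 2.5.2a, and the deposited values are counts of reads that start in an exon of a gene, without normalization. FastQC 0.11.3 is named in the submitters' processing notes. Reads with several equally good positions were placed at random by the authors, which can split reads between similar genes.

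Counts were analysed with edgeR 4.0.16 in R 4.3.3. Of 50600 genes, 50376 were found in a GENCODE annotation of GRCm38, which gave symbols, positions and exon lengths. Genes that code for protein and exceeded 1 CPM in 2 or more libraries entered the fit (13475 genes). The quasi-likelihood test (legacy = TRUE) used TMM factors and a model with the sorting date and the genotype, and both terms were read from it. P-values were adjusted by Benjamini-Hochberg over the 13475 genes and called under 0.05. Each SE is the size of the fitted log2 difference divided by the square root of its F value. Pair differences of log2 CPM used a prior count of 2. Residual degrees of freedom were 2 and the common dispersion was 0.0978. The fit was also run on simulated counts of lower dispersion, without date differences and with larger changes than those of the members. That run therefore does not cover changes of the size seen in the members.

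Libraries were paired by the sorting date in the labels. After removal of group means, same-date libraries correlated across genes at 0.180, 0.104 and 0.116, and libraries of different dates at −0.354 to 0.247. The smallest chi-square statistic per degree of freedom between libraries was 54.6, so none was a copy of another. The labels give each library as a separate pool of mice.

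The 33 genes, the companion lists and the marker lists (fibroblast, endothelial, cardiomyocyte, macrophage, lymphocyte, Schwann and mesothelial) were chosen with earlier results of these data known. By the rule for named genes, values in every library are given for *Acta2*, *Myh11*, *Cnn1*, the pericyte genes, genes with an unadjusted p under 0.05 for genotype or date, genes with one direction in all pairs and an absolute log2 fold change over 0.5, and the 3 most abundant. Of the companion lists, genes with an unadjusted p under 0.05 for genotype and the most abundant gene were named. *Sncg* and others outside these criteria are described by role. The alternatives were DESeq2 size factors, library size only, no filter, DESeq2 1.42.0, legacy = FALSE, no sorting date term, all biotypes, a threshold of 0.1 and each pair left out in turn.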

Additional observations from a re-analysis of the deposited data

How the results depend on the processing

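Of the 280 values of single genes under the alternatives, 261 kept their direction and 19 reversed it, and none crossed the threshold, with a smallest adjusted p over all members and alternatives of 0.561. The threshold of 0.1 also called 0 genes between genotypes. DESeq2 called 21 genes between genotypes and 403 between sorting dates, 1 of them a member, *Myh11*. Without the replicate block, which pairs the libraries by sorting date, 262 genes and 2 members, *Des* and *Sgcd*, had an unadjusted p under 0.05 between genotypes, and the block changed no adjusted call. When 1 pair was left out, these counts were 261 to 974 genes and 0 to 8 members, and the median log2 fold change of the contractile genes was −0.43 to −0.00097, while that of the pericyte genes was −0.22 to 0.33. Between sorting dates, leaving out 1 pair gave 0 to 106 genes with an adjusted p under 0.05, 701 to 1876 genes with an unadjusted p under 0.05 and 3 to 11 such members, an alternative chosen after the data were seen. The 106 genes were found without pair 2. Each fit without a pair has 1 residual degree of freedom fewer.

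The log2 fold change of *Cald1*, 0.00059, was −0.0387 with library size only and −0.0097 with all biotypes, and that of *Cspg4*, 0.08, was −0.0718 with legacy = FALSE and −0.48 without the replicate block. With 1 pair left out, the log2 fold changes that crossed 0 ranged from −0.86 to 0.0270 for *Acta2*, −1.47 to 0.29 for *Cnn1*, −0.61 to 0.33 for *Myl9*, −0.0487 to 0.0226 for *Cald1*, −0.0245 to 0.0686 for *Smtn*, −0.0317 to 0.11 for *Mylk*, −0.0867 to 0.56 for *Kcnmb1*, −0.19 to 0.52 for *Casq2*, −0.21 to 0.11 for *Rgs5*, −1.07 to 0.14 for *Kcnj8*, −0.31 to 0.74 for *Cspg4*, −0.20 to 0.61 for *Vtn*, −0.14 to 0.45 for *Higd1b* and −0.28 to 0.33 for *Ndufa4l2*. The cause of these reversals was not tested. Depth limits *Actg2*, *Adra1a*, *Adra1b*, *Myocd* and *Lmod1*, which entered only the fit without a filter. None of them had an unadjusted p under 0.05 between genotypes there in edgeR's test. *Adra1b* alone had one between sorting dates, against 7.22% of all genes, with 11 and 12 counts on date 2. With the sorting date in the model, edgeR's genotype p-values rest on the spread of the differences within the 3 pairs of pools. That spread is combined with one estimated over all genes tested, with 2.79 prior degrees of freedom.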

Other observations

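Marker lists of other cells that the sort could hold were read beside the smooth muscle and pericyte genes. Of 8 endothelial markers, 2 were lower in the fit, against 50% of all genes, with a median log2 fold change of 0.23. None of them had an unadjusted p under 0.05 in edgeR's test. The sum of the macrophage markers varied most between libraries, with 34.8, 588 and 1663 CPM in wt of pairs 1, 2 and 3 and 281, 945 and 92.7 in the libraries labelled flt3L-/-. *Lyz2* alone had 17.1, 507 and 1527 CPM in wt and 246, 844 and 67.4 CPM in those labelled flt3L-/-. The wt library of pair 1, the highest for 14 of the 28 tested smooth muscle and pericyte genes, thus had the lowest sum of macrophage markers. *Adgre1*, *C1qb*, *Cd68*, *Lyz2* and *Mrc1* were lowest there. *C1qa* and *C1qc* were lowest in the library labelled flt3L-/- of pair 1, and *Csf1r* in that of pair 3. Lymphocyte markers summed to 24.8 to 173 CPM. Of the 5 tested, 4 were lower in the fit, against 50% of all genes, with a median log2 fold change of −1.43. Of these 5, 3 were lower in all 3 pairs, against 11.5% of all genes. An unadjusted p under 0.05 in edgeR's test was reached by 1 of the 5, *Klrb1c*, against 3.59% of all genes. Schwann cell markers summed to 8.72 to 31.1 CPM, with *Sox10* and *Gfra3* near 0, and mesothelial markers summed to 22.1 to 65.1 CPM. Their part in the values of the smooth muscle and pericyte genes was not tested.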
